A study of Homo sapiens with 54 samples.

Results

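The genes described here are the matrix metalloproteinases (MMP), the ADAMTS proteases and their tissue inhibitors (TIMP). They were chosen by name, as the protein-coding rows called MMP, ADAMTS or TIMP followed by a number, which gave 46 of the 60676 genes in each deposited table, namely 23 MMP, 19 ADAMTS and 4 TIMP genes. RNA-seq was performed on hMSN-like cells, striatal-type neurons differentiated with activin A from H9 (WA09), a human embryonic stem cell line, and 53 libraries of 18 conditions in 4 experiments were read here. In the 1 mM and 1 µM dopamine experiments, cultures were dosed for 1 h on a single day (Acute) or on each of 5 days (Chronic), RNA was extracted 1 h later or 24 h later, and each experiment had its own PBS cultures. In the time course, cultures received 1 mM dopamine on 2, 3, 4 or 5 days (Day 2 to Day 5), RNA was taken 1 h after the last dose, and controls received ascorbic acid (AA). In the agonist experiment, cultures received 50 µM SKF82958, a D1-like receptor agonist, 50 µM quinpirole, a D2-like receptor agonist, or water. Every group held 3 libraries except Day 5, for which 2 were analysed here. Dopamine was prepared in ascorbic acid while the controls of the 1 mM and 1 µM experiments are labelled PBS, so dopamine and ascorbic acid cannot be told apart there. Acute cultures were younger than Chronic cultures, so culture age and the number of doses cannot be told apart either. Each of these experiments had a single PBS group, which cannot match both ages and whose age is not given in the sources used here. Some comparisons with PBS therefore also differ in culture age. The time course was timed, per the study's methods, so that all its samples were taken at the same culture age.

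MMPs are zinc-dependent enzymes that cleave collagens, proteoglycans and other proteins of the extracellular matrix, and most are secreted or displayed as inactive precursors that other proteases activate. ADAMTS proteases are secreted, and several of them (ADAMTS1, ADAMTS4, ADAMTS5, ADAMTS9 and ADAMTS15 among them) cleave the chondroitin sulfate proteoglycans, such as brevican and versican, that fill the space between neurons. TIMPs bind the active site of MMPs, and TIMP3 also inhibits several ADAM and ADAMTS proteases. In the striatum and elsewhere in the brain, these enzymes are known for remodeling the matrix around synapses.

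Between 5755919 and 27702963 reads per library fell on exons (median 11516406), leaving out quinpirole replicate 1, in which only 137051 of 4121674 gene reads were exonic. Neuron markers (MAP2, TUBB3, SYT1, STMN2 and DCX) were high in all other libraries, with a summed level of 1675 to 4074 TPM (a level corrected for exon length and library size), and the lowest sum belonged to Acute 24 h 1 mM replicate 1. Results that rest on these 2 libraries are given with and without them. Pluripotency and microglial markers were near 0 outside quinpirole replicate 1 (at most 2.00 and 5.74 TPM in sum), whereas markers of mesenchymal cells (32.8 to 733 TPM in sum), astrocytes (57.7 to 212 TPM) and epithelial cells (253 to 4500 TPM, mostly TTR) were present and differed between conditions. Neural progenitor markers (SOX2, PAX6, NES, HES5, MKI67 and TOP2A) were also present, at 768 to 2407 TPM in sum outside the quinpirole group. There, 11 striatal markers, PPP1R1B, BCL11B and FOXP1 among them, were at 62.2 to 211 TPM in sum. In bulk RNA, fewer cells of a type and less RNA per cell cannot be told apart.

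Of the 46 genes, 14 had a mean level of at least 10 TPM in all 4 control groups, and 39 reached a mean of 1 TPM in at least one condition, MMP12 only through quinpirole replicate 1. TIMP2, a soluble inhibitor that also takes part in the activation of MMP2, was the most abundant, at 286 ± 9.73 TPM in PBS cultures of the 1 mM experiment, 162 ± 35.6 in those of the 1 µM experiment, 273 ± 7.39 in AA cultures and 325 ± 5.58 in water cultures (mean ± SD, n = 3 each). Among the membrane-anchored MMPs, MMP24 was at 62.6 to 139 TPM and MMP15 at 68.1 to 87.9 TPM in the means of the 4 control groups, while MMP14, which activates MMP2, was at 18.0 to 44.1 TPM and the GPI-anchored MMP17 at 21.2 to 25.4 TPM. The gelatinase MMP2 was at 24.3 to 37.3 TPM in these means, whereas MMP9, the other gelatinase, never exceeded 25 exon reads in a library. Among the ADAMTS genes, control means were 30.0 to 67.4 TPM for ADAMTS10, 38.2 to 44.3 TPM for ADAMTS7, 18.8 to 29.3 TPM for ADAMTS3 and 15.5 to 42.2 TPM for ADAMTS1. At the other end, MMP8, MMP13, MMP20, MMP26 and MMP27 had at most 3 exon reads in every library, and ADAMTS14 and MMP25 stayed below a mean of 1 TPM with at most 19 and 22 reads.

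**Figure D1:**
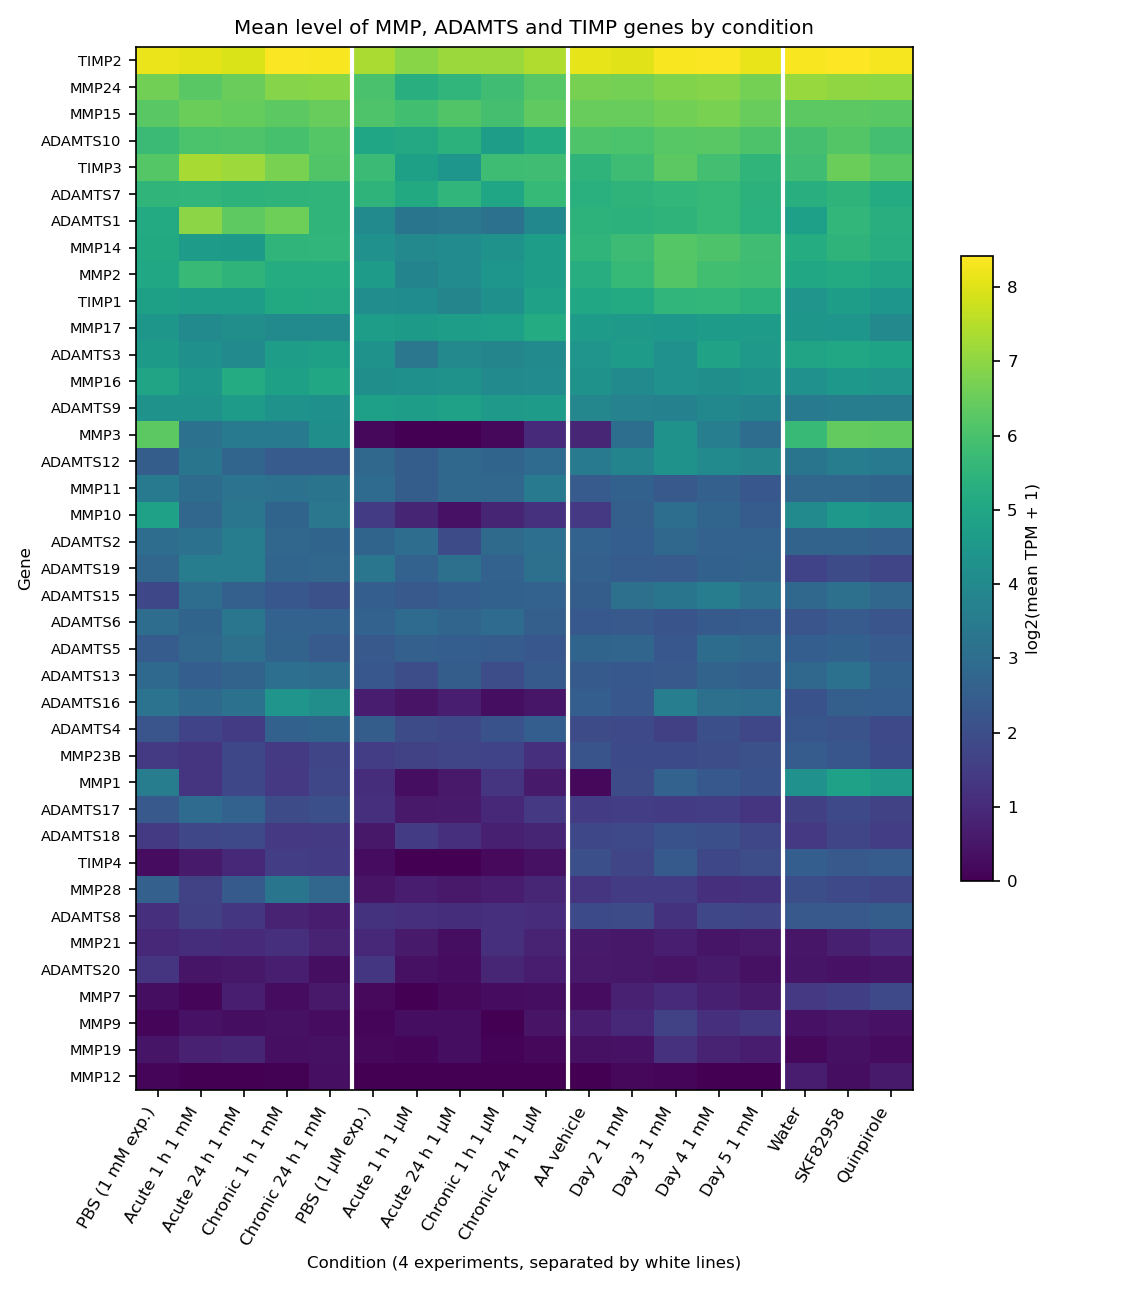
Mean level, as log2(mean TPM + 1), of the 39 genes with a mean of at least 1 TPM in any condition (rows, ordered by their median over conditions) in the 18 conditions (columns), with quinpirole shown as the mean of replicates 2 and 3. TIMP2 is the brightest row throughout, and MMP1, MMP3 and MMP10 are dark in the 1 µM experiment and bright in the agonist experiment.

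Of the 46 genes, 37 passed edgeR's filter on low counts at 1 mM, and 13 of these changed 1 h after a single dose of 1 mM dopamine against PBS (edgeR quasi-likelihood test, adjusted p-value under 0.05), 7 higher and 6 lower, beside 16.0% of all 17804 genes tested (8.04% higher and 7.94% lower). The median log2 fold change of the tested members was -0.028, beside 0.011 over all genes. With the study's rule for differentially expressed genes (DEGs), which also asks for a log2 fold change of 1 or more in size and 1 TPM or more in the higher group mean, 8 members were counted (4 higher and 4 lower), beside 4.10% of all genes. The calls of ADAMTS1, ADAMTS12, ADAMTS15, ADAMTS19, MMP10, MMP28 and TIMP3 held without any 1 library. The number of members called was 22 without Acute 24 h replicate 1, a library outside the comparison that shares its estimate of the spread. The share of all genes called without that library is not given here, so the rise to 22 cannot be set beside it.

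ADAMTS1, which cleaves versican and brevican, had the highest log2 fold change of the tested members. Its level was 28.0, 35.8 and 39.7 TPM in the PBS libraries and 116, 121 and 135 TPM 1 h after the dose. No dosed library overlapped a PBS library, and the log2 fold change was 1.91 ± 0.21 (SE, edgeR adjusted p-value = 0.000174). ADAMTS15, another protease of these proteoglycans, was at 2.32, 2.42 and 2.91 TPM in PBS and at 6.84, 7.03 and 7.40 TPM after the dose. It rose by 1.54 ± 0.19 on the log2 scale (edgeR adjusted p-value = 0.00029). TIMP3, the matrix-bound inhibitor, went from 68.5, 71.5 and 76.3 TPM to 148, 161 and 165 TPM, again with no overlap, a log2 fold change of 1.20 ± 0.22 (edgeR adjusted p-value = 0.00338). TIMP3 overlaps SYN3 on the opposite strand, and the strand used in counting is not given in the sources used here. Reads across TIMP3's own exon junctions also differed, at 10.6 ± 2.12 CPM (scaled to exon reads) in PBS and 21.3 ± 2.70 after the dose (SD, n = 3). The rise of ADAMTS12 (1.01 ± 0.22), which cleaves cartilage oligomeric matrix protein, and of ADAMTS19 (0.91 ± 0.16) also passed the test (edgeR adjusted p-values of 0.00901 and 0.00267). MMP2 rose from 30.0 to 34.4 TPM across the PBS libraries to 46.5 to 54.1 TPM, a log2 fold change of 0.72 ± 0.17 (edgeR adjusted p-value = 0.0149). This call was lost without any of PBS replicates 1 and 2 and Acute 1 h replicates 2 and 3, with adjusted p-values of up to 0.0743. ADAMTS17 (0.78 ± 0.25, edgeR adjusted p-value = 0.0479) kept its call in only 1 of 7 such omissions.

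**Figure D2:**
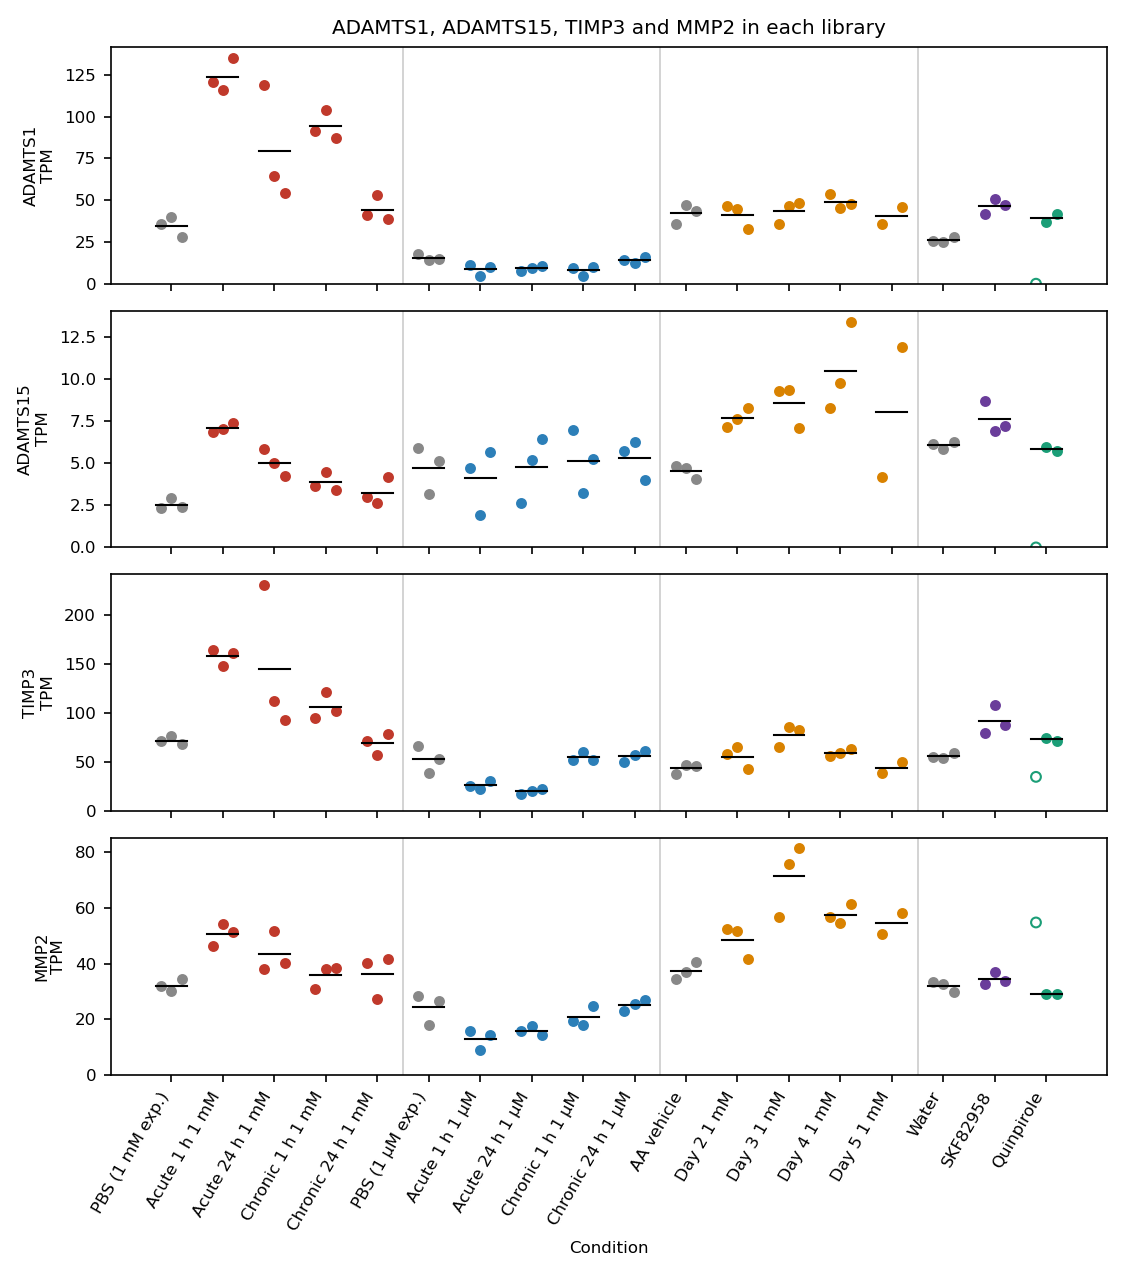
Level in TPM (y axes, linear from 0) of ADAMTS1, ADAMTS15, TIMP3 and MMP2 in each library (points) of the 18 conditions (x axis), with lines at group means and quinpirole replicate 1 as an open point left out of its mean. All 4 genes sit above their PBS libraries 1 h after 1 mM dopamine, while ADAMTS1, TIMP3 and MMP2 sit below theirs 1 h after 1 µM dopamine.

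The lower genes were MMP3, MMP1, MMP10, MMP28, MMP17 and MMP24. MMP3 (stromelysin-1), which cleaves proteoglycans and activates other MMPs, was at 18.0, 42.7 and 172 TPM in PBS (127, 326 and 1279 exon reads) and at 5.20, 6.54 and 11.7 TPM after the dose. MMP1, the interstitial collagenase, was at 3.21, 5.05 and 24.5 TPM in PBS and at 0.772, 1.57 and 1.99 TPM after the dose. MMP10 (stromelysin-2) was at 11.5, 17.4 and 52.3 TPM in PBS and at 4.90, 5.29 and 7.21 TPM after the dose. For these 3 genes every dosed library was below every PBS library, and PBS replicate 3 was the highest. The log2 fold changes were -3.26 ± 0.81 for MMP3, -2.87 ± 0.78 for MMP1 and -2.17 ± 0.47 for MMP10 (edgeR adjusted p-values of 0.0167, 0.025 and 0.00825). Without PBS replicate 3 they were -1.91, -1.47 and -1.27, and the adjusted p-values were 0.0887 for MMP3 and 0.163 for MMP1, while MMP10 kept its call. MMP3 also lost its call without Acute 1 h replicate 1 or 3 (adjusted p-values of 0.067 and 0.0722), and MMP1 without any of the Acute 1 h libraries (0.0616 to 0.0936). MMP28 (epilysin) was at 4.49 to 5.32 TPM in PBS and at 1.94 to 2.18 TPM after the dose, a log2 fold change of -1.18 ± 0.21 (edgeR adjusted p-value = 0.00301). MMP17 (-0.44 ± 0.13) and MMP24 (-0.30 ± 0.08) changed less (edgeR adjusted p-values of 0.033 and 0.0204). MMP17 was lost in 5 of 7 omissions of 1 library (up to 0.132) and MMP24 without PBS replicate 3 or Acute 1 h replicate 1 or 3 (0.0656 to 0.0731). MMP24 shares its locus with MMP24OS on the other strand. MMP28 overlaps TAF15 and C17orf50 on the other strand, so some of its reads could belong to those genes, and its junction reads are not given here.

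At 24 h after the single 1 mM dose, 10 members were called (4 higher and 6 lower), beside 15.5% of all genes (8.38% higher and 7.09% lower), and 3 by the DEG rule, beside 3.70%. ADAMTS1 was at 54.5, 64.4 and 119 TPM, a log2 fold change of 1.05 ± 0.21 against PBS (edgeR adjusted p-value = 0.00901), and this was the only member whose call held without any 1 library. When the libraries of only these 2 groups were fitted, 0 members were called. TIMP3 was at 93.4, 112 and 231 TPM, with a log2 fold change of 0.85 ± 0.22 (edgeR adjusted p-value = 0.023). The highest value of both genes came from replicate 1, the library with the low neuron marker sum, and without it the log2 fold changes were 0.73 for ADAMTS1 and 0.46 for TIMP3. The call of TIMP3 was lost without any of the PBS libraries (0.0697 to 0.0792). ADAMTS15 (0.85 ± 0.19) and ADAMTS19 (0.74 ± 0.16) also rose (edgeR adjusted p-values of 0.0143 and 0.0121), though both calls were lost without PBS replicate 1 (0.0637 and 0.0563). MMP3 (-3.05 ± 0.79) and MMP10 (-1.77 ± 0.45) fell (edgeR adjusted p-values of 0.0242 and 0.0232), and without PBS replicate 3 their log2 fold changes were -1.69 and -0.86, with adjusted p-values of 0.118 and 0.0897. MMP3 was also lost without PBS replicate 2 (0.0516), and MMP10 overlapped its PBS libraries. The lower group also held MMP14 (-0.63 ± 0.16), ADAMTS3 (-0.73 ± 0.20), MMP17 (-0.45 ± 0.13) and MMP24 (-0.27 ± 0.08), with edgeR adjusted p-values of 0.0229 to 0.0362, and each of these calls was lost without any of the PBS libraries (0.0506 to 0.105). MMP24 overlapped its PBS libraries, and its log2 fold change was 0.02 with total gene reads in place of exon reads. The intron share was 19.5 to 21.8% in PBS and 12.5 to 15.9% at Acute 24 h. The summed level of FOS, FOSB, JUNB and EGR1, genes of the immediate response, was 58.9, 72.9 and 882 TPM at Acute 24 h. It was 56.1 to 64.3 TPM in PBS and 970 to 1098 TPM at Acute 1 h, so 1 library at 24 h was near the 1 h libraries. EGR1 was called at 24 h (3.63 ± 0.93, edgeR adjusted p-value = 0.0239).

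After 5 daily doses of 1 mM dopamine, 2 members were called at 1 h, 1 higher and 1 lower, beside 2.08% of all genes (1.27% higher and 0.814% lower), and both met the DEG rule, beside 0.820%. ADAMTS1 was at 87.4, 91.3 and 104 TPM, above every PBS library, with a log2 fold change of 1.41 ± 0.21 (edgeR adjusted p-value = 0.00448) that held without any 1 library. MMP10 was at 5.47, 5.50 and 5.76 TPM, a log2 fold change of -2.33 ± 0.47 (edgeR adjusted p-value = 0.0209). Its call was lost without any Chronic 1 h library (0.0913 to 0.116), and its log2 fold change was -1.41 without PBS replicate 3. DESeq2 called 7 members in this comparison, and edgeR called 12 without Acute 24 h replicate 1. At 24 h after the fifth dose edgeR called 0 members, beside 0.663% of all genes (0.118% higher and 0.545% lower), and 0 met the DEG rule, beside 0.298%. At an unadjusted p-value under 0.05 there were 10, DESeq2 called 3, and edgeR called 9 without Acute 24 h replicate 1. For these other fits at 1 h and 24 h the share of all genes is not given here, so a rise over all genes cannot be told apart. ADAMTS1 was back at 38.7, 41.0 and 53.1 TPM there, a range that overlaps the PBS libraries.

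When repeated dosing was set against single dosing at 1 mM, both at 1 h, 10 members differed (4 higher and 6 lower), beside 11.3% of all genes (5.37% higher and 5.91% lower), and 5 met the DEG rule, beside 2.82%. MMP28, which overlaps TAF15 and C17orf50 on the opposite strand, was the most different by p-value. Its level was 6.65, 8.94 and 10.6 TPM after 5 doses and 1.94, 2.15 and 2.18 TPM after 1 dose, a log2 fold change of 1.95 ± 0.21 (edgeR adjusted p-value = 0.000156). ADAMTS16 was also higher, at 16.9, 20.8 and 22.4 TPM against 5.72, 5.93 and 7.26 TPM (1.56 ± 0.35, edgeR adjusted p-value = 0.0123, or 0.0561 without Acute 1 h replicate 2). MMP14 (0.78 ± 0.16) and MMP24 (0.52 ± 0.08) were higher after 5 doses too (edgeR adjusted p-values of 0.0072 and 0.00121). Lower after 5 doses than after 1 were ADAMTS8 (-1.59 ± 0.37), ADAMTS17 (-1.37 ± 0.26), ADAMTS12 (-1.12 ± 0.22), ADAMTS19 (-0.99 ± 0.16), ADAMTS15 (-0.98 ± 0.18) and MMP2 (-0.61 ± 0.17), with edgeR adjusted p-values of 0.0016 to 0.0388. Of these, ADAMTS8 lost its call without Acute 1 h replicate 3 or Chronic 1 h replicate 1, and MMP2 without any library of either group. ADAMTS1 and TIMP3 were not called in this comparison.

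At 1 µM dopamine the direction differed. Of 30 members tested, 5 were lower and 0 higher 1 h after a single dose, beside 5.77% of all genes in either direction, 3.25% higher and 2.52% lower, and only ADAMTS3 met the DEG rule, beside 2.41%. The median log2 fold change of the tested members was -0.296, beside 0.020 over all genes. ADAMTS3, which processes procollagen and cleaves reelin, was at 16.1, 19.7 and 20.6 TPM in PBS and at 8.45, 9.13 and 9.98 TPM after the dose (-1.01 ± 0.17, edgeR adjusted p-value = 0.00324). TIMP3 went from 38.7, 53.0 and 67.0 TPM to 22.7, 26.0 and 31.0 TPM, without overlap (-0.96 ± 0.17, edgeR adjusted p-value = 0.00411). Its junction reads were 5.66 ± 1.41 CPM in PBS and 2.41 ± 1.45 after the dose (SD, n = 3). MMP2 went from 17.8, 26.4 and 28.5 TPM to 9.06, 14.3 and 15.7 TPM (-0.88 ± 0.18, edgeR adjusted p-value = 0.00818). ADAMTS1 was at 14.1, 14.8 and 17.7 TPM in PBS and at 4.85, 9.79 and 11.1 TPM after the dose (-0.89 ± 0.23, edgeR adjusted p-value = 0.0327). TIMP2 fell by 0.43 ± 0.12 on the log2 scale (edgeR adjusted p-value = 0.0416), with overlapping groups. The Acute 1 h libraries held fewer exon reads (5755919 to 8629828) than the PBS libraries (9584706 to 11026492), and replicate 2 stood apart with 31.2% of its reads in introns, against 22.3 to 23.6% in PBS. Without it, 3 members were called. The calls of ADAMTS1 and TIMP2 were each lost in 5 of the omissions of 1 library, PBS replicates 1, 2 and 3 among them, with adjusted p-values of up to 0.0892 for ADAMTS1 and up to 0.133 for TIMP2. When the libraries of only these 2 groups were fitted, 0 members were called.

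At the later times of the 1 µM experiment few members were called. TIMP3 was the only call 24 h after a single dose, beside 3.31% of all genes (1.40% higher and 1.91% lower), at 18.0, 20.7 and 22.1 TPM (-1.41 ± 0.17, edgeR adjusted p-value = 0.000582), which also met the DEG rule, beside 1.18%. After 5 doses ADAMTS1 was the only call at 1 h, beside 2.58% of all genes (1.75% higher and 0.834% lower), at 4.81, 9.21 and 10.0 TPM (-0.95 ± 0.22, edgeR adjusted p-value = 0.0382), and it was lost without any 1 of the 6 libraries compared (0.0805 to 0.129). At 24 h after 5 doses edgeR called 0 members and 0.00% of all genes, with 1 member at an unadjusted p-value under 0.05 and 0 by DESeq2. Between Chronic 1 h and Acute 1 h, TIMP3 was the only member that differed, beside 1.20% of all genes (0.556% higher and 0.647% lower), and it met the DEG rule, beside 0.496%. It was at 52.2, 52.7 and 59.9 TPM after 5 doses, 1.11 ± 0.17 higher on the log2 scale than after 1 dose (edgeR adjusted p-value = 0.00661).

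The difference between the doses was tested in a fit of both experiments, as the Acute 1 h change at 1 mM minus that at 1 µM. It passed the test for 6 of 37 members, all with the larger change at 1 mM, beside 2.01% of all 18390 genes (1.09% with the larger change at 1 mM and 0.919% with the smaller). They were ADAMTS1 (2.82 ± 0.31), TIMP3 (2.18 ± 0.28), ADAMTS15 (1.77 ± 0.40), ADAMTS19 (1.64 ± 0.29), MMP2 (1.63 ± 0.26) and ADAMTS12 (1.37 ± 0.36) on the log2 scale, with edgeR adjusted p-values of 8.28e-06 to 0.0431. ADAMTS1, TIMP3 and MMP2 were called higher at 1 mM and lower at 1 µM. The differences of ADAMTS1, TIMP3, ADAMTS19 and MMP2 held without any 1 library. That of ADAMTS15 was lost without PBS 1 mM replicate 1 or 3 or Acute 1 h 1 mM replicate 3 (0.0516 to 0.0534), and that of ADAMTS12 in 10 of the omissions (up to 0.126). The experiments used separate cultures, so dose cannot be told apart from other differences between them.

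**Figure D3:**
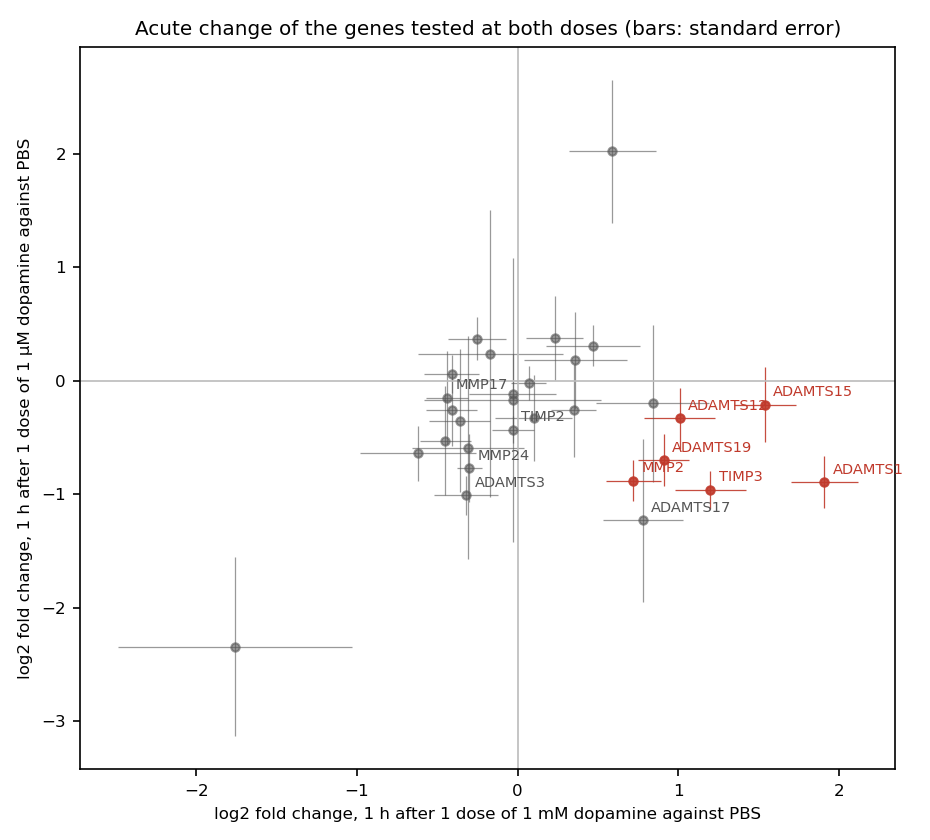
Log2 fold change 1 h after a single dose against PBS at 1 mM (x axis) and at 1 µM (y axis) for the members tested at both doses, with bars for the standard error of each fit. The 6 genes in red, whose change differed between doses, all lie to the right of 0 and below 0, and MMP1, MMP3 and MMP10 are not shown because they were not tested at 1 µM.

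MMP1, MMP3 and MMP10 belong to a cluster of 9 MMP genes within 435 kb of chromosome 11, in the order MMP7, MMP20, MMP27, MMP8, MMP10, MMP1, MMP3, MMP12 and MMP13 (GRCh38, chr11:102520508-102955732). MMP10 (chr11:102770502-102780628), MMP1 (chr11:102789919-102798160) and MMP3 (chr11:102835801-102843609) are neighbors on the minus strand, and the pseudogene WTAPP1 overlaps them on the other strand. RefSeq promoter windows were at hand for 27 of the 46 members. The 250 bases before the start of MMP10, of MMP7 and of TIMP3 are shown because results turn on MMP10 and TIMP3, and MMP7 is another gene of the MMP10 cluster. MMP1, MMP3 and ADAMTS1 had no window. Capitals mark matches, on either strand, to TGANTCA, a form of the AP-1 motif bound by FOS and JUN proteins, or to TATAAA. No window of these genes held the CRE motif TGACGTCA.
MMP10 (GRCh38.p14, chr11:102780629-102780878, minus strand): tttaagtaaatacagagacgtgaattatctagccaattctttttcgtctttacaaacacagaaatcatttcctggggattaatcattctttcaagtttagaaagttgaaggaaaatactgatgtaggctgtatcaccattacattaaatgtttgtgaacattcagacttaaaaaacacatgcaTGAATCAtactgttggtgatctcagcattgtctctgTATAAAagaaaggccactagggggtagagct
MMP7 (GRCh38.p14, chr11:102530748-102530997, minus strand): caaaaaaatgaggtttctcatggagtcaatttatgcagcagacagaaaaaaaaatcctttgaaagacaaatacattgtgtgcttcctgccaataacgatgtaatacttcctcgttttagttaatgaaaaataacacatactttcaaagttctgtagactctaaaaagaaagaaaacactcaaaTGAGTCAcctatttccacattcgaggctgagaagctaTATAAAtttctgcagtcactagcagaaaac
TIMP3 (GRCh38.p14, chr22:32801455-32801704, plus strand): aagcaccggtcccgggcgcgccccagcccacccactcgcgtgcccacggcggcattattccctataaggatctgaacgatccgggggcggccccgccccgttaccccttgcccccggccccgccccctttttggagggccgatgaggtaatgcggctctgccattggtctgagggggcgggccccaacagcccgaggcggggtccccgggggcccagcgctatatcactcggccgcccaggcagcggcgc
In MMP10 the AP-1 match TGAATCA begins 67 bases before the start and TATAAA 31 bases before it. In MMP7 the AP-1 match TGAGTCA begins 67 bases before the start and TATAAA 30 bases before it. TIMP3 held neither motif, and its window was 72.4% G or C, against 34.4% for MMP10 and 33.6% for MMP7. Of all 35116 windows of this length, 6.57% held TGANTCA, 10.7% TATAAA and 1.65% TGACGTCA, and 4 members held TGANTCA (ADAMTS12, MMP10, MMP20 and MMP7). Of the members with a window, 7 held TATAAA. Placement varied within the cluster, since MMP20 held its AP-1 match 112 bases and TATAAA 72 bases before its start. MMP8 held TATAAA 110 bases before its start and no AP-1 match. The match in MMP7 is also the stricter AP-1 form TGAGTCA, which was searched too and was held by 4.20% of all windows. In the printed windows the AP-1 and TATAAA matches do not overlap, and a match is only a description of the letters. FOS, as a gene of the immediate response, was higher 1 h after dopamine at both doses (log2 fold changes of 3.98 ± 0.48 at 1 mM and 3.53 ± 0.24 at 1 µM, edgeR adjusted p-values of 0.000282 and 2.17e-06).

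The control level of these genes differed widely between experiments. MMP3 was at 18.0 to 172 TPM in the PBS libraries of the 1 mM experiment, at 0 to 0.401 TPM (2, 0 and 0 exon reads) in those of the 1 µM experiment, at 0.3 to 1.40 TPM in AA libraries and at 28.1 to 66.1 TPM in water libraries. MMP1 had 2, 1 and 0 exon reads in the AA libraries and 90 to 151 in the water libraries. MMP10 was at 1.11, 1.25 and 2.62 TPM in AA and at 11, 14.7 and 19.6 TPM in water. FOS, FOSB, JUNB and EGR1 were also far higher in water than in the other controls, with their sums given for the agonist experiment. In the 1 µM experiment, MMP3 had at most 9 exon reads in any library, MMP10 at most 17 and MMP1 at most 19, and these genes were not tested there. MMP7 (matrilysin) was lower throughout, with 10 to 15 reads in the water libraries and at most 4 in the AA libraries and in the PBS libraries of either dopamine experiment.

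**Figure D4:**
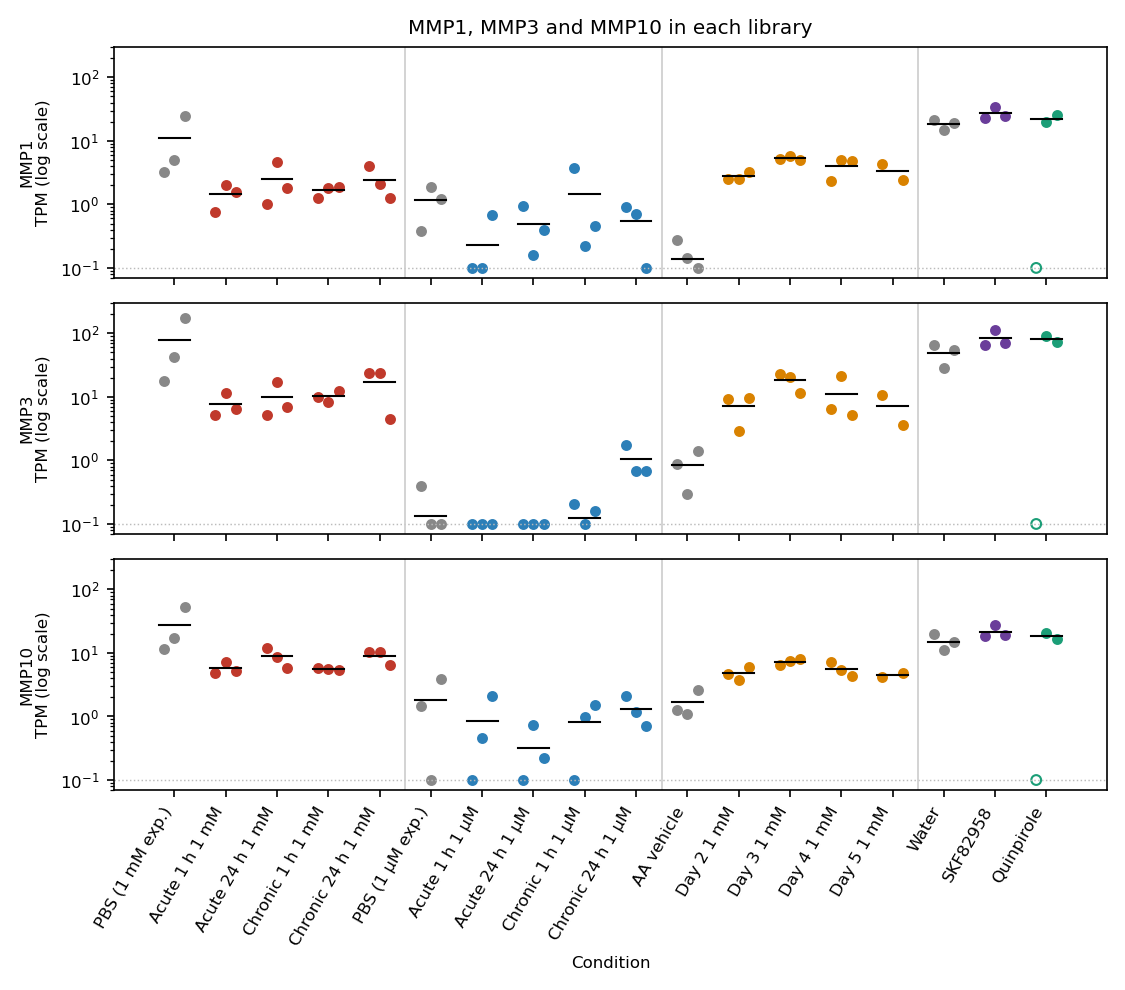
Level in TPM (y axes, log scale, with 0 drawn on the dotted line at 0.1) of MMP1, MMP3 and MMP10 in each library (points) of the 18 conditions (x axis), with lines at group means and quinpirole replicate 1 as an open point left out of its mean. The Acute 1 h libraries of the 1 mM experiment sit below their PBS libraries, some at 24 h overlap them, and the dosed libraries of the time course sit above their AA libraries.

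Against the AA controls of the time course, 1 mM dopamine was followed by higher levels of the same 3 genes. MMP1 was at 2.48 to 3.26 TPM on Day 2, 5.08 to 5.74 on Day 3, 2.36 to 4.93 on Day 4 and 2.38 to 4.36 on Day 5. Since the AA libraries held at most 2 MMP1 reads each, fold changes are given as bounds against 3 reads per library, and MMP1 was at least 6.47-fold higher on Day 2, 12.5-fold on Day 3, 9.41-fold on Day 4 and 7.91-fold on Day 5 (edgeR adjusted p-values of 0.00191, 0.000115, 0.000532 and 0.00263). MMP3 was at 0.3, 0.888 and 1.40 TPM in AA and at 11.5, 20.8 and 23.3 TPM on Day 3, a log2 fold change of 4.5 ± 0.73 (edgeR adjusted p-value = 0.00215). MMP10 was at 6.39, 7.47 and 7.90 TPM on Day 3, a log2 fold change of 2.22 ± 0.33 (edgeR adjusted p-value = 0.00123). On Day 5 MMP3 (3.18 ± 0.87) and MMP10 (1.56 ± 0.39) did not pass the test (edgeR adjusted p-values of 0.0845 and 0.055). The calls of MMP1 on each day, and those of MMP3 and MMP10 on Day 3, held without any 1 library, while MMP3 and MMP10 on Day 2 and Day 4 lost their call without AA replicate 1 or 2, with adjusted p-values of 0.0579 to 0.159. The same was true of MMP3 on Day 2 without any other library of the pair of groups, of MMP10 on Day 2 without Day 2 replicate 3 and of MMP3 on Day 4 without Day 4 replicate 2.

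Day 5 and Chronic 1 h share their treatment, 5 daily doses of 1 mM dopamine with RNA taken 1 h after the last. The dosed levels were near each other, with MMP3 at 3.55 and 10.7 TPM on Day 5 and at 8.24, 9.97 and 12.6 TPM at Chronic 1 h, and MMP10 at 4.25 and 4.81 TPM against 5.47, 5.50 and 5.76 TPM. MMP1 was at 2.38 and 4.36 TPM on Day 5 and at 1.28, 1.81 and 1.88 TPM at Chronic 1 h. The controls of MMP1, MMP3 and MMP10 differed far more, as given above, so their dosed levels lay below PBS in 1 experiment and above AA in the other. Of these 3 genes, only MMP10 was called at Chronic 1 h against PBS and only MMP1 on Day 5 against AA. Opposite changes were thus not called for any of them. In a test of the difference added after the data were seen (the Chronic 1 h change minus the Day 5 change), 4 of 40 members passed, 1 higher and 3 lower, beside 0.665% of all genes (0.223% higher and 0.441% lower). The difference was -3.9 ± 0.68 on the log2 scale for MMP10, -6.16 ± 1.36 for MMP3 and 1.33 ± 0.28 for ADAMTS1 (edgeR adjusted p-values of 0.00595, 0.0311 and 0.0254), and MMP1 also passed (edgeR adjusted p-value = 0.0043). Those of MMP3 and ADAMTS1 were each lost in most omissions of 1 library. In omissions from groups of 3, the lost calls had edgeR adjusted p-values of 0.055 to 0.0882 for MMP3 and 0.0515 to 0.0753 for ADAMTS1. Without Day 5 replicate 2, which left 1 library on Day 5, the difference of MMP3 was -4.92. For ADAMTS1 the dosed means were 94.1 TPM at Chronic 1 h and 40.7 TPM on Day 5, and the control means were 34.5 TPM in PBS and 42.2 TPM in AA. Vehicle, culture age, sequencing and differentiation round cannot be told apart between the controls.

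Other members also rose in the time course. On Day 2, 5 of 38 members tested were called, all higher, beside 3.88% of all 16768 genes (1.89% higher and 1.99% lower). On Day 3, 13 were called (12 higher and 1 lower), beside 7.37% of all genes (4.77% higher and 2.60% lower), on Day 4 9 were called, all higher, beside 4.38% (2.58% higher and 1.80% lower), and on Day 5 2 were called, both higher, beside 1.63% (1.23% higher and 0.406% lower). The median log2 fold change of the tested members was 0.189, 0.325, 0.311 and 0.187 from Day 2 to Day 5, beside 0.000 to 0.022 over all genes. MMP2 was called on every day. It was at 34.4, 36.9 and 40.5 TPM in AA, 41.6 to 52.6 TPM on Day 2, 56.9, 76.0 and 81.5 TPM on Day 3, 54.5 to 61.4 TPM on Day 4 and 50.6 and 58.3 TPM on Day 5, with no library in the AA range. The Day 3 log2 fold change of MMP2 was 1.04 ± 0.14 (edgeR adjusted p-value = 0.000377) and held without any 1 library, while its Day 2, Day 4 and Day 5 calls (0.51 ± 0.14, 0.65 ± 0.14 and 0.68 ± 0.15) were lost without AA replicate 1 or 2 (0.0724 to 0.171), and likewise without Day 2 replicate 1 or 2 or AA replicate 3 for Day 2, Day 4 replicate 3 for Day 4 and Day 5 replicate 2 for Day 5. MMP14, the membrane protease that activates MMP2, was at 40.5, 44.4 and 47.5 TPM in AA and at 58.9, 70.7 and 85.9 TPM on Day 3 (0.80 ± 0.13, edgeR adjusted p-value = 0.00272). TIMP3 was at 38.3, 46.0 and 47.6 TPM in AA and at 65.5, 82.5 and 85.8 TPM on Day 3 (0.93 ± 0.15, edgeR adjusted p-value = 0.00176). On Day 5 TIMP3 was at 38.9 and 49.9 TPM, 0.79 ± 0.17 below Day 3 on the log2 scale (edgeR adjusted p-value = 0.0383), the only member called between these days, beside 1.16% of all genes (0.537% higher and 0.626% lower). This difference was lost without Day 3 replicate 2 or 3 or without either Day 5 library (0.0582 to 0.17).

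ADAMTS12 (1.06 ± 0.21), ADAMTS15 (1.02 ± 0.23) and ADAMTS16 (1.34 ± 0.31) rose on Day 3 as well (edgeR adjusted p-values of 0.00805, 0.0145 and 0.0156). ADAMTS15 was also called on Day 2 (0.90 ± 0.23) and Day 4 (1.24 ± 0.23), with edgeR adjusted p-values of 0.0415 and 0.00731, and its Day 4 call held without any 1 library, while its Day 2 call was lost without any 1 of the 6 libraries compared (0.0623 to 0.163). Smaller increases on Day 3 were those of ADAMTS7 (0.35 ± 0.08), TIMP2 (0.34 ± 0.08) and MMP15 (0.25 ± 0.07), with edgeR adjusted p-values of 0.0184, 0.0191 and 0.0494. ADAMTS8 was the only member that fell, from 2.36, 2.59 and 3.15 TPM in AA to 1.03, 1.17 and 1.79 TPM on Day 3 (-0.92 ± 0.27, edgeR adjusted p-value = 0.0477). On Day 3 the calls of ADAMTS12, ADAMTS15, ADAMTS16, ADAMTS7, TIMP2, MMP15 and ADAMTS8 were lost without single libraries, in each case without AA replicate 1 among them (0.0558 to 0.116). ADAMTS1 was at 35.9 to 47.3 TPM in AA and at 32.8 to 53.8 TPM from Day 2 to Day 5, and was not called on any day.

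**Figure D5:**
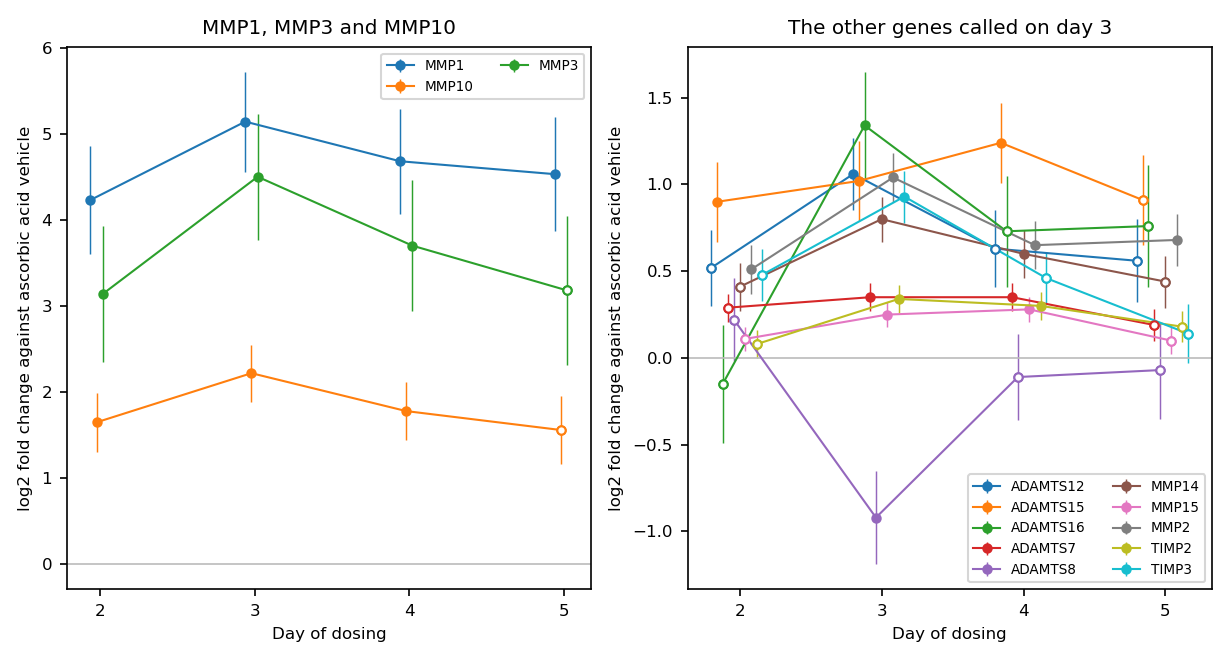
Log2 fold change against the ascorbic acid vehicle (y axes) on Day 2 to Day 5 (x axes) for the 13 members called on Day 3, MMP1, MMP3 and MMP10 on the left and the other genes on the right, with bars for standard errors and open points where the adjusted p-value was 0.05 or more. Most genes are highest on Day 3, ADAMTS8 is below 0 there, and the fitted values of MMP1 depend on a prior count because its vehicle libraries held at most 2 reads.

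In the agonist experiment edgeR called 0 of 37 members for SKF82958 against water, beside 0.0124% of all 16132 genes, and 0 for quinpirole, beside 0.00%. In each comparison 1 member had an unadjusted p-value under 0.05 and DESeq2 called 0. The summed level of FOS, FOSB, JUNB and EGR1 was 902 to 1082 TPM in water and 1593 to 1775 TPM after SKF82958. It was 56.1 to 64.3 TPM in PBS of the 1 mM experiment, 26.1 to 50.2 TPM in PBS of the 1 µM experiment and 67.5 to 77.0 TPM in AA. At 1 mM Acute 1 h it was 970 to 1098 TPM. The water cultures were thus near the dosed cultures in these genes, and the part of this in the comparisons was not tested. Quinpirole replicate 1, with nearly no exon reads, shares the spread of this fit, and without it 2 members were called for SKF82958 and 1 for quinpirole. The share of all genes called without it is not given here. ADAMTS1 was at 24.9, 25.6 and 28.2 TPM in water, at 41.5, 47.2 and 50.8 TPM after SKF82958 and at 36.9 and 41.5 TPM in quinpirole replicates 2 and 3, above water in each of these libraries. With all libraries, its log2 fold change was 0.75 ± 0.31 for SKF82958 (edgeR adjusted p-value = 1, or 6.5e-05 to 1 over the alternatives). Without quinpirole replicate 1, ADAMTS1 and TIMP3 passed for SKF82958, and ADAMTS1 for quinpirole with a log2 fold change of 0.63. TIMP3 was at 54.3, 55.1 and 59.7 TPM in water and at 80.0, 88.0 and 108 TPM after SKF82958. MMP3 was at 28.1, 55.1 and 66.1 TPM in water and at 65.6, 71.3 and 113 TPM after SKF82958, with overlap and an edgeR adjusted p-value of 1. Group means of quinpirole that include replicate 1 are not usable for low genes, since 10 exon reads made MMP21 93.6 TPM there, against 0.629 and 1.42 TPM in the other 2 libraries.

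Among the inhibitors, TIMP1 and TIMP4 were called nowhere. TIMP1 was at 14.2 to 36.2 TPM in the control libraries and its largest rise was on Day 3, at 28.8, 51.1 and 56.6 TPM (0.62 ± 0.25, edgeR adjusted p-value = 0.15). TIMP4 passed the filter on low counts only in the time course and the agonist experiment and had at most 30 exon reads in a library. TIMP1 and TIMP4 also lie inside synapsin genes on the opposite strand, SYN1 and SYN2, so some of their reads could belong to those genes. Members with moderate levels and no call in any comparison included ADAMTS9 (10.3 to 27.5 TPM in group means), ADAMTS10, MMP16, ADAMTS2, ADAMTS6 and MMP11. Of the 46 members, 40 were tested in at least one comparison and 20 were called in at least one. The share of all genes called in at least one comparison is not given here, and 16.0% were called at 1 mM Acute 1 h alone. The count of 20 is therefore not a trait of the members.

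Genes that act with these proteases were followed in lists fixed with the members. Of 20 tested genes for activation, inhibition and clearance of matrix proteases, 3 were called at 1 mM Acute 1 h, beside 16.0% of all genes, with PLAU and TFPI2 higher and RECK lower. PLAU, the urokinase that starts plasmin-driven MMP activation, rose by 1.99 ± 0.44 (edgeR adjusted p-value = 0.00941), and RECK, a membrane inhibitor of MMPs, fell by 0.49 ± 0.12 (edgeR adjusted p-value = 0.0149). On Day 3, CD44, LRP1, PLAT, PLAU and SPOCK1 were among the genes of this list that rose, and 0 of 19 tested fell, beside 7.37% of all genes called (2.60% lower). Of 11 tested substrates of the brain matrix, BCAN (brevican) and HAPLN2 fell and DAG1 rose at 1 mM Acute 1 h, beside the same 16.0%. BCAN was at 26.0 TPM in PBS and 10.5 TPM after the dose (group means), a log2 fold change of -1.24 ± 0.23 (edgeR adjusted p-value = 0.00367), and it also fell at 1 µM Acute 1 h (-1.05 ± 0.27, edgeR adjusted p-value = 0.0366). TNC (tenascin-C) rose on Day 3, Day 4 and Day 5 (log2 fold changes of 0.61 to 0.75) and fell at 1 µM Acute 1 h (-0.73 ± 0.14, edgeR adjusted p-value = 0.0062). Of the ADAM sheddases, ADAM9 was the only 1 of 9 called at 1 mM Acute 1 h, beside 16.0% of all genes (0.37 ± 0.08, edgeR adjusted p-value = 0.0108). On Day 3, ADAM12, ADAM19 and ADAM9 rose and 0 of the 9 fell, beside 7.37% of all genes called. Among 4 tested ADAMTS-like genes, which lack the protease domain, ADAMTSL2 rose at 1 mM Acute 1 h (0.75 ± 0.17) and Acute 24 h (0.80 ± 0.17), with edgeR adjusted p-values of 0.0107 and 0.0121. The shares of all genes called there were 16.0% and 15.5%. ADAMTSL1 rose on Day 2, Day 3 and Day 4, beside 3.88%, 7.37% and 4.38%.

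Markers of neurons and of other cell types also moved in several comparisons. The summed level of 9 mesenchymal or fibroblast markers (COL1A1, COL1A2, COL3A1, LUM, DCN, PDGFRB, POSTN, TWIST1 and ACTA2) was 107 to 149 TPM in PBS and 255 to 306 TPM at Acute 1 h in the 1 mM experiment. ACTA2 carried this rise, from a mean of 21.3 to 169 TPM (log2 fold change of 3.05 ± 0.21, edgeR adjusted p-value = 6.81e-06), while DCN fell (-1.02 ± 0.22, edgeR adjusted p-value = 0.00884) and the median log2 fold change of the list was 0.13. At Chronic 1 h the sum was 145 to 202 TPM, where ADAMTS1 was called and TIMP3 and MMP2 were not. In the 1 µM experiment the sum was 52.3 to 101 TPM in PBS and 32.8 to 64.7 TPM at Acute 1 h. Of 8 tested there, COL1A1 and POSTN were called lower, beside 5.77% of all genes called. In the time course the sum was 223 to 295 TPM in AA and 371 to 733 TPM on Day 3. Of 9 tested on Day 3, ACTA2, COL1A1, COL1A2, COL3A1 and PDGFRB were called higher, beside 7.37% of all genes called. Of 4 epithelial markers, KRT8 (1.33 ± 0.19) and KRT18 (0.82 ± 0.16) rose at 1 mM Acute 1 h (edgeR adjusted p-values of 0.000816 and 0.0056), and both passed the test of the dose difference. EPCAM and TTR were not called at 1 mM Acute 1 h, where 16.0% of all genes were called, and the median log2 fold change of the list was 0.34. The summed level of the 4 did not rise, at 539 to 2722 TPM in PBS and 388 to 1256 TPM at Acute 1 h. Of 4 astrocyte markers, GFAP (2.35 ± 0.25) and SLC1A3 (0.86 ± 0.14) were higher at Chronic 1 h than at Acute 1 h at 1 mM (edgeR adjusted p-values of 0.000193 and 0.00163), beside 11.3% of all genes called. Of 6 neural progenitor markers, HES5, MKI67, SOX2 and TOP2A were lower and NES higher on Day 3, beside 7.37% of all genes called. HES5 was lower at 1 mM Acute 1 h (-0.99 ± 0.28) and higher at 1 µM Acute 1 h (1.67 ± 0.42). It also passed the test of the dose difference. Of 11 striatal markers, ARPP21 was lower and GAD2 higher at 1 mM Acute 1 h, beside 16.0% of all genes called. PPP1R1B was lower and GAD2 higher at 1 mM Acute 24 h, beside 15.5%. PPP1R1B and FOXP2 were lower at 1 mM Chronic 1 h, beside 2.08%. GAD1 was lower at 1 µM Acute 1 h, Acute 24 h and Chronic 1 h, beside 5.77%, 3.31% and 2.58%. Of 5 neuron markers, SYT1 was lower at 1 mM Acute 1 h (-0.43 ± 0.08). At 1 mM Acute 24 h SYT1 and STMN2 were lower, and 0 were higher at either time. The part of these cell types in the changes of the members was not tested. Endothelial markers (PECAM1, CDH5, KDR and CLDN5) were at 11.1 to 23.4 TPM in PBS and 11.3 to 12.9 TPM at Acute 1 h in the 1 mM experiment. The share of reads in introns also differed, at 19.5 to 21.8% in PBS and 12.3 to 13.2% at Acute 1 h in the 1 mM experiment, and exon reads were therefore tested.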

How the data were processed

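RNA-seq was performed on 53 libraries of hMSN-like cells in 18 groups, 3 libraries each except Day 5 with 2. Per the study's methods, the authors mapped reads to the human genome and counted them per gene in CLC Genomics Workbench with an Ensembl annotation of GRCh38. The deposited tables give raw counts per gene (total exon reads, the values tested here) and TPM, which the authors computed from exon reads and exon length. The strand setting is not given in the sources used here, nor is which sequencing provider ran each library. Library depth was 5755919 to 27702963 exon reads, and 3 reads on a 2-kb transcript are 0.207 to 0.955 TPM, apart from quinpirole replicate 1 with 137051 exon reads. These floors cover counting error only.

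Groups were taken from the GEO labels. The members and all gene lists were chosen with earlier results of these data known. Differences in exon reads were fitted by edgeR 4.0.16 under R 4.3.3 (TMM scaling, filterByExpr with a minimum count of 10 and a minimum total of 15, quasi-likelihood test), with all groups of an experiment in 1 fit, and p-values were adjusted by the Benjamini-Hochberg method over all genes tested, with a threshold of 0.05. The dose difference was fitted over the 1 mM and 1 µM experiments. Nothing in the labels says that replicates are separate differentiations, so p-values measure only the spread between these libraries, which may be technical. Values are given for members with a mean of at least 1 TPM in any group or with a call, for all TIMP genes, and for genes of the partner lists called in at least 2 comparisons; other members are given by their read range. Alternatives were other scalings, DESeq2 1.42.0, no filter, total gene reads in place of exon reads, a replicate block, only the groups compared, and leaving out each library. The fit was tested on simulated data. Promoter windows are RefSeq's, on GRCh38.p14, and motifs were searched on both strands. Tables were handled in Python 3.11.15. 1 gene of the partner lists is not reported here.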

Additional observations from a re-analysis of the deposited data

Results flagged for a closer look

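The change 1 h after a single dose differed between 1 mM and 1 µM dopamine by the test of the difference itself for 6 genes. The 1 mM change minus the 1 µM change was 2.82 for ADAMTS1, 2.18 for TIMP3, 1.77 for ADAMTS15, 1.64 for ADAMTS19, 1.63 for MMP2 and 1.37 for ADAMTS12 on the log2 scale. ADAMTS1, TIMP3 and MMP2 passed the test at each dose with opposite signs, and of these only TIMP3 kept its call at both doses without any 1 library. The experiments used separate cultures, so dose cannot be told apart from other differences between them. Of 9 mesenchymal markers, ACTA2 and POSTN passed the same test, and their part in these differences was not tested.

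The change after 5 daily doses of 1 mM dopamine, 1 h after the last, differed between the PBS-controlled experiment and the time course for 4 genes. The first change minus the second was -7.34 for MMP1, -6.16 for MMP3, -3.9 for MMP10 and 1.33 for ADAMTS1 on the log2 scale. The value of MMP1 depends on a prior count, because its AA libraries held at most 2 reads, and is no bound. Dosed levels of MMP3 overlapped between the experiments, while the PBS and AA levels were far apart. The differences of MMP3 and ADAMTS1 were lost in most omissions of 1 library. This comparison was chosen after seeing the data.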

How the results depend on the processing

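Leaving out the 4 time-course calls of MMP1, whose fitted values are no bound, 79 changes called for single genes gave 1027 values under the alternatives, of which 774 kept direction and call, 252 kept direction but missed the threshold and 1 turned, namely MMP24 at Acute 24 h 1 mM, at 0.02 with total gene reads. Of 252 counts of members called, 159 stayed within 1.5 times the main count. With only the groups compared, the counts were 25 for Acute 1 h, 0 for Acute 24 h, 15 for Chronic 1 h, 1 for Chronic 24 h and 21 for Chronic against Acute 1 h at 1 mM, at 1 µM 0 for Acute 1 h, 2 for Acute 24 h, 0 for Chronic 1 h and 0 for Chronic against Acute, 14 for Day 4, 0 for Day 5, 0 for Day 5 against Day 3 and 2 for SKF82958. By the DEG rule they were 8, 3 and 5 for Acute 1 h, Acute 24 h and Chronic against Acute at 1 mM, and 1 and 0 for Acute 1 h and Chronic 1 h at 1 µM. DESeq2 called 7 at Chronic 1 h and 3 at Chronic 24 h (1 mM), 8, 5 and 2 at Acute 1 h, Acute 24 h and Chronic against Acute (1 µM), 5 on Day 5 and 2 for Day 5 against Day 3. Total gene reads gave 20 for Chronic against Acute (1 mM), at 1 µM 3 for Acute 1 h, 2 for Acute 24 h, 0 for Chronic 1 h and 2 for Chronic against Acute, 5 on Day 4, 1 on Day 5, 0 for Day 5 against Day 3 and 11 for the dose difference. DESeq2 size factors gave 2 at Acute 24 h 1 µM. With no filter the counts were 0 at Chronic 1 h 1 µM, 9 on Day 2, 8 on Day 5 and 7 for Day 5 against Day 3. With the replicate number as a block they were 1 at Chronic 1 h 1 mM, 3 on Day 2 and 1 on Day 5, and samples of the same number did not deviate together (mean correlations of 0.002, 0.0229, -0.0103 and -0.0248 in the 4 experiments), so the numbers were not taken as pairs. The shares of all genes called under the alternatives are not given here, so a move of the members cannot be told apart from a move of all genes. The cause of these moves was not tested.

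Leaving out 1 library gave 7 to 22, 3 to 15, 1 to 12, 0 to 9 and 8 to 20 calls in the 5 comparisons at 1 mM, in the order above, and 3 to 4 at Acute 1 h, 1 at Acute 24 h, 0 at Chronic 1 h, 0 at Chronic 24 h and 1 for Chronic against Acute at 1 µM. It gave 1 to 3 on Day 2, 6 to 16 on Day 3, 2 to 8 on Day 4, 1 to 3 on Day 5, 0 to 4 for Day 5 against Day 3, 0 to 2 for SKF82958, 0 to 1 for quinpirole, 4 to 7 for the dose difference and 2 to 7 for the difference between experiments after 5 doses. The highest counts at 1 mM (22, 15, 12, 9 and 20) came without Acute 24 h replicate 1. Genes near the floor, such as MMP1 in AA, are limited by depth.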
